A study of Mus musculus with 6 samples.

Results

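Genes of glycolysis and of the response to low oxygen were followed in the lungs of mice that lack *Igf1*, the gene of the insulin-like growth factor IGF1. The set was given as 36 gene symbols: 4 transporters of glucose or lactate, 16 glycolytic enzymes, 4 genes that decide the fate of pyruvate, 6 regulators of the hypoxia-inducible factors (HIF) and 6 genes known as targets of hypoxia. A gene was measured through the probe set with the highest mean over the arrays among those annotated with its symbol alone. This gave 33 genes, of which *Gapdh* was present only at control probe sets, so that 32 genes entered the comparison out of 12393 genes on the arrays. The expression of *Gpi1*, *Eno1* and *Ankrd37* was not analysed here.

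Whole lungs at embryonic day 18.5 were compared on 6 arrays, 3 of *Igf1-/-* embryos (homozygous for the null allele) and 3 of *Igf1+/+* wild type embryos, without any treatment. Both genotypes came from matings of heterozygotes on the C57BL/6J background. The allele is inactive in the whole body from conception, so that effects of the lung cannot be separated from those of the rest of the embryo. Pups were delivered by Caesarean section and helped to breathe for a short period before the lungs were taken, which bears on genes that respond to oxygen. How well each pup breathed is not given, and breathing and genotype cannot be told apart. The arrays of a genotype are described as biological replicates, and the study speaks of 3 mice per genotype, whereas the labels also mention pooled lungs, so that whether an array stands for exactly 1 animal is not settled. All values are log2 expression values, and a negative log2 fold change means a lower mean in the *Igf1-/-* lungs.

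Glycolysis breaks glucose down to pyruvate in the cytosol and yields ATP without oxygen, and pyruvate is then turned into lactate or enters the mitochondria. In low oxygen, a HIF alpha subunit escapes the prolyl hydroxylases that mark it for destruction, pairs with ARNT and raises the transcription of glucose transporters, glycolytic enzymes and genes such as *Vegfa*. The fetal lung grows in low oxygen, and its HIF pathway is known for its part in vessel growth and in the maturation of the distal epithelium.

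The HIF dimer is known to bind DNA at a short core, ACGTG or GCGTG. Promoter sequences of RefSeq (GRCm38.p6) were at hand for 33 of the 36 listed genes, and *Slc2a3*, *Epas1* and *Ndrg1* had no entry. The 250 bases upstream of the transcription start are shown for 4 genes: *Slc2a1*, *Egln3* and *P4ha2*, a transporter, a HIF regulator and a hypoxia target that were lower on every *Igf1-/-* array, and *Ldha*, at its first listed start, whose difference was near 0. They are written 5′ to 3′ in the direction of the gene, and capitals mark the core on either strand, with overlapping matches run together.
Slc2a1, chr4:119108495-119108744 (+): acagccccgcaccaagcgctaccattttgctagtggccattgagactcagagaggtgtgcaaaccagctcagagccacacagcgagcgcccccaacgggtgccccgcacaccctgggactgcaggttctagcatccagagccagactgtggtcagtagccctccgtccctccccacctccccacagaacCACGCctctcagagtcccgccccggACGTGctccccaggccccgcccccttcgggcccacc
Egln3, chr12:54203875-54204124 (-): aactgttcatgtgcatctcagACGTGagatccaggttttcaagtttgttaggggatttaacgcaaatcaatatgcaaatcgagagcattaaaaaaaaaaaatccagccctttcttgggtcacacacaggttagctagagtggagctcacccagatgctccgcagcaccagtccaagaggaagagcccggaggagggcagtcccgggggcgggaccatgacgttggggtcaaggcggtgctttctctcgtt
P4ha2, chr11:54100674-54100923 (+): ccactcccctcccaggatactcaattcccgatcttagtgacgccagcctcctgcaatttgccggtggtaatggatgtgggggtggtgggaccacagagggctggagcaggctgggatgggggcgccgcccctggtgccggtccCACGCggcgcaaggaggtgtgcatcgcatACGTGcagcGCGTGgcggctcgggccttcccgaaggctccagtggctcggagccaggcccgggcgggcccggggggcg
Ldha, chr7:46845554-46845803 (+): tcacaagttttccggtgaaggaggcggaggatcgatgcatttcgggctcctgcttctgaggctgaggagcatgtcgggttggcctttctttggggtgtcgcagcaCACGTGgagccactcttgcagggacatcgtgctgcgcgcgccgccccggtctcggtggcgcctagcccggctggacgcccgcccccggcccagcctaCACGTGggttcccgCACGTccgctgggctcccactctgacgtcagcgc
*Slc2a1* held 2 places with a core, 61 and 36 bases upstream of the start, *Egln3* held 1, 229 bases upstream, and *P4ha2* held 3, between 107 and 69 bases upstream. *Ldha* held 3 as well, of which 2 were the palindrome CACGTG, which reads as the core on both strands. A core was found in 37 of the 46 windows of the listed genes (80.4%) and in 38.6% of all 32851 windows of the same length. ACGTG alone was in 47.8% of the windows of the listed genes and in 16.6% of all windows, and GCGTG in 54.3% and 28.2%. The windows of the listed genes were also richer in CG pairs, with a mean of 15.4 per window against 9.86 in all windows, and both cores hold such a pair. A match describes these letters only and is not evidence of binding. *Ldha*, with as many places as *P4ha2*, had a log2 fold change of −0.00 where *P4ha2* had −0.34. The genes shown were picked by their difference, and whether places go with the differences was not tested.

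Across the 32 genes, most values were lower in the *Igf1-/-* lungs, by small amounts, and none passed the test. The log2 fold change was negative in 25 genes and positive in 7, with a median of −0.15, whereas the median over all 12393 genes was 0.03. By limma with adjustment over all mouse probe sets, 0 of the 32 genes had an adjusted p under 0.10, the level at which a gene is said here to rise or fall. Over all genes this level was passed by 0.452% in the lower and 0.145% in the higher direction. At the wider level of 0.20 that the study also used, *Aldoc* was lower (adjusted p = 0.183) and *Ldhb* higher (adjusted p = 0.146), which is 1 gene of 32 in each direction beside 1.57% and 1.15% of all genes. Without *Igf1+/+* replicate 3, 3 genes passed 0.10: *Slc2a1* was lower, and *Ldhb* and *Vhl* were higher. Differences were also more frequent over all genes without that array. At an unadjusted p under 0.05, 8.47% were lower and 10.8% higher, against 5.66% and 7.04% with all arrays. The share of all genes that passed 0.10 without that array is not given here.

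At an unadjusted p under 0.05, 11 of the 32 genes were lower, beside 5.66% of all genes, and 2 were higher, beside 7.04%. The 11 were *Slc2a1*, *Hk2*, *Pfkp*, *Pfkfb3*, *Aldoa*, *Aldoc*, *Pgam1*, *Egln1*, *Egln3*, *P4ha2* and *Ndrg1*, and the 2 were *Ldhb* and *Vhl*. The count of 11 depended on single arrays: it was 6 without *Igf1-/-* replicate 1, 3 without *Igf1-/-* replicate 3 and 4 without *Igf1+/+* replicate 1, where the share of all genes was 4.86%, 4.57% and 3.74%. The count of 2 became 1 when *Igf1-/-* replicate 1 was left out, and likewise for *Igf1-/-* replicate 3 and for *Igf1+/+* replicate 2. It was also 1 under quantile normalization and with dim probe sets left out, where the share of all genes was 6.37% and 5.3%. In 10 genes all *Igf1-/-* values lay below all *Igf1+/+* values, which was seen in 6.84% of all genes, and in 2 genes they lay above, beside 11.9% of all genes. With fewer arrays groups separate more often in all genes: the 10 became 16 without *Igf1-/-* replicate 2 and also without *Igf1+/+* replicate 2, where the share of all genes was 10.7% and 10.2%, and the 2 became 4 without *Igf1-/-* replicate 1 and 5 without *Igf1+/+* replicate 3, where it was 20% and 25.2%. With 3 arrays against 3, an exact permutation test cannot give a p below 0.1.

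**Figure D1:**
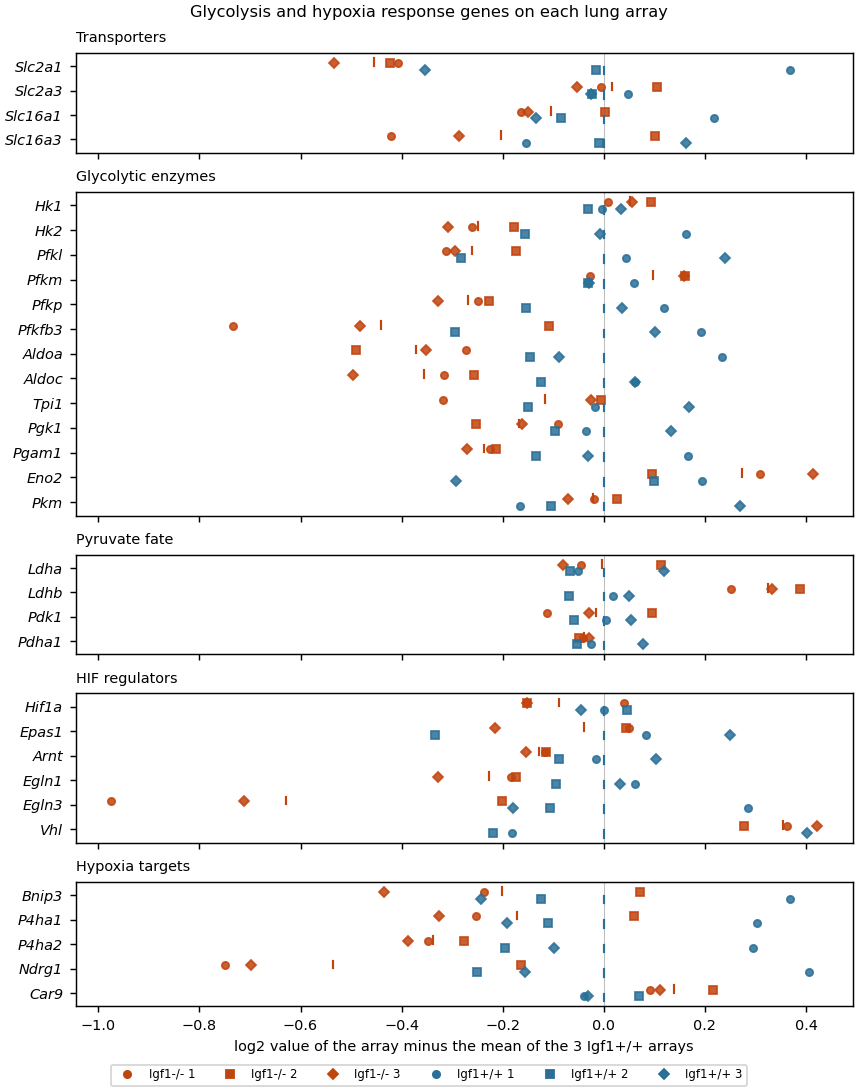
Log2 value of each of the 32 genes on each array minus the mean of the 3 *Igf1+/+* arrays, by role; points are arrays (colour: genotype, shape: replicate number) and short vertical lines are group means. The *Igf1-/-* points of 10 genes, such as *Slc2a1*, *Aldoa* and *P4ha2*, lie wholly to the left of the *Igf1+/+* points, and those of *Ldhb* and *Car9* wholly to the right.

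The arrays did not contribute evenly. *Igf1+/+* replicate 1 had the highest of the 6 values in 13 of the 32 genes (40.6%), against 18% of all genes, and *Igf1+/+* replicate 3 in 10. The lowest value fell on *Igf1-/-* replicate 3 in 12 genes (37.5%), against 12.1% of all genes, and on *Igf1-/-* replicate 1 in 8. *Igf1+/+* replicate 2 was the highest in only 1 gene. *Xist* and the Y-linked *Eif2s3y* split the arrays by sex: *Eif2s3y* was at 7.50 on *Igf1-/-* replicate 1 and 7.95 on *Igf1+/+* replicate 3, and between 3.46 and 3.53 on the others. *Igf1-/-* replicate 1 also had an *Xist* value of 7.09, between 3.50 on *Igf1+/+* replicate 3 and 12.1 to 12.2 on the rest. Each genotype thus had 1 male-type array, and with sex as a block the counts stayed at 0 called, 11 lower and 2 higher at an unadjusted p under 0.05. Within the 4 female arrays, 20 of the 32 genes were lower. At an unadjusted p under 0.05, 4 were lower and 2 higher there, beside 7.5% and 9.84% of all genes. In these arrays 1 gene, *Vhl*, was higher at an adjusted p of 0.0872. They leave out *Igf1+/+* replicate 3, whose *Vhl* value of 6.53 lay among those of the *Igf1-/-* arrays.

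Among the transporters, *Slc2a1*, which encodes the glucose carrier GLUT1 of many fetal tissues, was lower in the *Igf1-/-* lungs. Its value was 8.76, 8.74 and 8.63 on the *Igf1-/-* arrays and 9.53, 9.15 and 8.81 on the *Igf1+/+* arrays. The groups did not overlap, but the wild type values spread widely and *Igf1+/+* replicate 3 came close to the *Igf1-/-* lungs. The log2 fold change was −0.46 (SE 0.16, adjusted p = 0.298), or 1.37-fold higher in wild type. Without *Igf1+/+* replicate 3 it passed the test (adjusted p = 0.0592), whereas without *Igf1+/+* replicate 1 the difference was −0.27 (adjusted p = 0.611). The other 2 probe sets gave −0.38 (adjusted p = 0.255) and −0.11 (adjusted p = 0.646), the latter with overlapping groups. *Slc2a3*, the carrier GLUT3, differed by 0.02 (SE 0.08), with a 95% interval from −0.16 to 0.19. *Slc16a1* and *Slc16a3*, which encode monocarboxylate carriers that move lactate across the cell membrane, differed by −0.10 (interval −0.34 to 0.14) and −0.20 (interval −0.52 to 0.11).

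The glycolytic enzymes leaned to lower values in the *Igf1-/-* lungs. Of 13 enzymes in the test, 10 were lower and 3 higher, with a median log2 fold change of −0.24. None passed the test. At an unadjusted p under 0.05, 6 were lower and 0 higher, beside 5.66% and 7.04% of all genes. In 5 all *Igf1-/-* values lay below all *Igf1+/+* values, beside 6.84% of all genes. With 1 array left out the count of 6 ran from 2 to 7. It was 3 without *Igf1-/-* replicate 1, and 2 without *Igf1-/-* replicate 3 and also without *Igf1+/+* replicate 1. The median stayed between −0.30 and −0.14 when any 1 array was left out, and it was −0.10 at the second brightest probe sets.

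Hexokinases trap glucose in the cell as its phosphate. *Hk2*, the form that is regulated by insulin and hypoxia, was at 8.68, 8.76 and 8.63 on the *Igf1-/-* arrays and at 9.10, 8.78 and 8.93 on the *Igf1+/+* arrays. The groups met almost at *Igf1-/-* replicate 2 and *Igf1+/+* replicate 2, and the log2 fold change was −0.25 (SE 0.09, adjusted p = 0.338). *Hk1*, the widely expressed form, differed by 0.05 (interval −0.11 to 0.21).

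Phosphofructokinase commits sugar to glycolysis and has liver, muscle and platelet subunits. *Pfkp*, the platelet type, was at 7.60, 7.63 and 7.53 in *Igf1-/-* and at 7.97, 7.70 and 7.89 in *Igf1+/+* lungs, −0.27 on the log2 scale (SE 0.09, adjusted p = 0.274), with groups that did not overlap. Its dimmer probe set gave −0.01. *Pfkl*, the liver type, differed by −0.26 (interval −0.55 to 0.03) with overlapping groups, and *Pfkm*, the muscle type, by 0.10 (interval −0.09 to 0.28). *Pfkfb3* makes the sugar phosphate that activates phosphofructokinase and is a known target of hypoxia. It was at 6.02, 6.64 and 6.27 in *Igf1-/-* and at 6.94, 6.46 and 6.85 in *Igf1+/+* lungs. Here *Igf1-/-* replicate 2 lay above *Igf1+/+* replicate 2, and the log2 fold change was −0.44 (SE 0.17, adjusted p = 0.347).

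The aldolases, which split the sugar bisphosphate into triose phosphates, were lower by like amounts at their brightest probe sets. *Aldoa*, the main form of muscle and of most tissues, was at 10.91, 10.69 and 10.83 on the *Igf1-/-* arrays and at 11.41, 11.04 and 11.09 on the *Igf1+/+* arrays. All *Igf1-/-* lungs lay below all *Igf1+/+* lungs, and the log2 fold change was −0.37 (SE 0.11, adjusted p = 0.242). Each of its 4 probe sets was lower with no overlap, from −0.47 to −0.35, and 1 of them had an adjusted p of 0.187. These probe sets are of the type whose probes can also match other transcripts. The 4 were read for the same gene on the same arrays and are not independent. *Aldoc*, the brain form, was at 7.82, 7.87 and 7.64 in *Igf1-/-* and at 8.19, 8.01 and 8.19 in *Igf1+/+* lungs. Its log2 fold change was −0.36 (SE 0.09, adjusted p = 0.183), and its other probe set, with values near the bottom of the scale between 4.13 and 4.27, gave −0.05 (adjusted p = 0.809).

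The later steps of the pathway were less even. *Pgam1*, phosphoglycerate mutase, was at 10.20, 10.21 and 10.15 in *Igf1-/-* and at 10.59, 10.29 and 10.39 in *Igf1+/+* lungs. Every *Igf1-/-* lung lay below every *Igf1+/+* lung, and the log2 fold change was −0.24 (SE 0.09, adjusted p = 0.338), or −0.15 without *Igf1+/+* replicate 1. *Tpi1*, triose phosphate isomerase, differed by −0.12 (interval −0.38 to 0.14) at its brightest probe set and by −0.31 (adjusted p = 0.202) at its dimmest, where the groups did not overlap. *Pgk1*, phosphoglycerate kinase, differed by −0.17 (interval −0.37 to 0.03), and at its 2 other probe sets, with −0.21 and −0.14, the groups did not overlap. *Gapdh*, read from the control probe sets, gave −0.07 at the 3′ end (SE 0.09, adjusted p = 0.759), −0.04 at the 5′ end and 0.01 in the middle. *Eno2*, the neuronal enolase, differed by 0.27 (interval −0.04 to 0.58). *Pkm*, pyruvate kinase, differed by −0.02 (interval −0.28 to 0.24), since *Igf1+/+* replicate 3 at 11.16 lay above the *Igf1-/-* range of 10.82 to 10.92 while the other wild type arrays, at 10.72 and 10.79, lay below it.

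**Figure D2:**
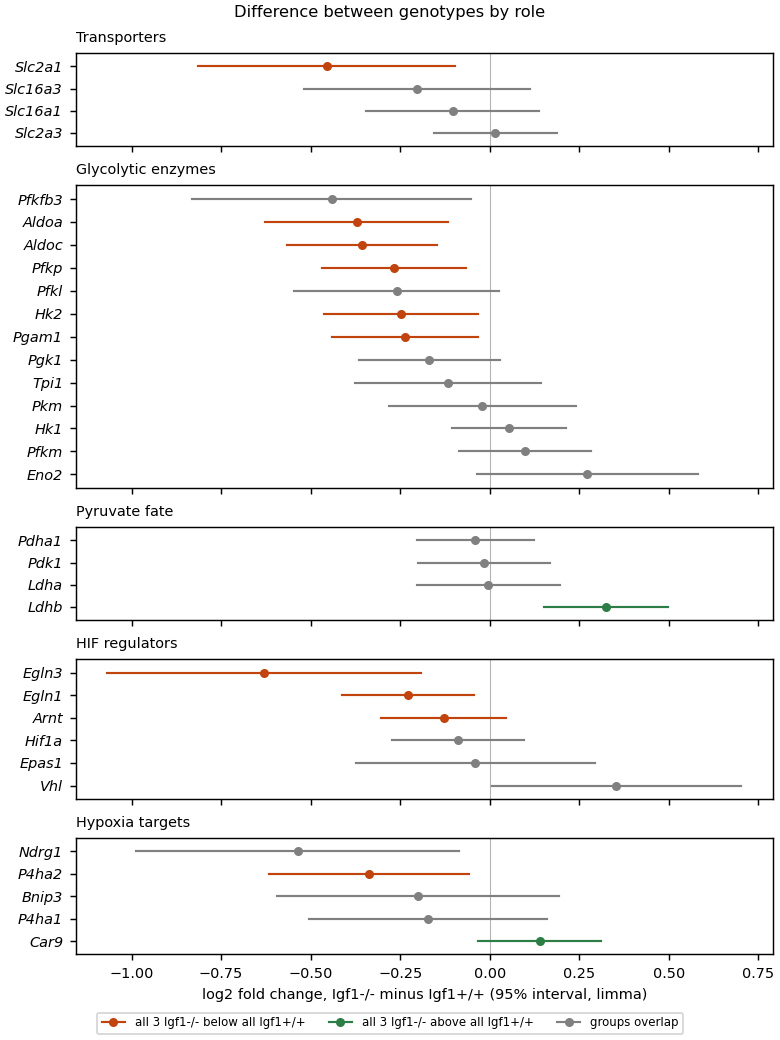
Log2 fold change of each gene (*Igf1-/-* minus *Igf1+/+*, x axis) with its 95% interval from limma, by role; colours mark genes whose groups do not overlap. Of the 13 glycolytic enzymes 10 lie left of 0, from −0.44 in *Pfkfb3*, and among the HIF regulators *Egln3* (−0.63) and *Vhl* (0.35) lie at the ends.

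At the exit of glycolysis, lactate dehydrogenase turns pyruvate into lactate and back. *Ldhb*, whose subunit prevails in heart, was higher in the *Igf1-/-* lungs, at 9.44, 9.57 and 9.52 against 9.20, 9.12 and 9.24 in *Igf1+/+* lungs. The log2 fold change was 0.32 (SE 0.08, adjusted p = 0.146), or 1.25-fold. It was higher at each of its 4 probe sets, by 0.32, 0.25, 0.26 and 0.12, with no overlap in 3 of them. It passed the test with arrays weighted by quality (adjusted p = 0.07) and when *Igf1+/+* replicate 3 was left out, where the adjusted p was 0.0991. The share of all genes higher at an unadjusted p under 0.05 also grew there, from 7.04% to 10.4% and 10.8%. *Ldhb* did not pass when any other single array was dropped, its adjusted p then lying between 0.267 and 0.392. Nor did it pass with the replicate number as a block (0.251). *Ldha*, whose subunit favours the making of lactate and is a textbook target of HIF, was at 11.47, 11.63 and 11.43 in *Igf1-/-* and at 11.46, 11.44 and 11.63 in *Igf1+/+* lungs. Its log2 fold change was −0.00, with an interval from −0.20 to 0.20. The difference between the subunits was not tested.

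*Pdha1*, a subunit of the pyruvate dehydrogenase that feeds pyruvate into the mitochondria, differed by −0.04 (interval −0.20 to 0.12). *Pdk1*, the kinase that shuts this enzyme off in hypoxia, differed by −0.01 (interval −0.20 to 0.17) at its brightest probe set. Its other probe set gave −0.37 (SE 0.13, adjusted p = 0.298), with values of 8.26, 8.04 and 8.42 in *Igf1-/-* and of 8.81, 8.59 and 8.41 in *Igf1+/+* lungs, so that the 2 probe sets of the gene disagreed in size.

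Of the 6 HIF regulators, 5 were lower and 1 higher, with a median log2 fold change of −0.11. None passed the test. At an unadjusted p under 0.05, 2 were lower and 1 higher, beside 5.66% and 7.04% of all genes. In 3 all *Igf1-/-* values lay below all *Igf1+/+* values, beside 6.84% of all genes. The 2 lower ones at an unadjusted p under 0.05 were the prolyl hydroxylases *Egln1* and *Egln3*, the oxygen sensors of the pathway.

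*Egln3*, a prolyl hydroxylase whose gene is itself induced by HIF, had the largest difference of all 32 genes. It was at 7.67, 8.44 and 7.93 on the *Igf1-/-* arrays and at 8.93, 8.54 and 8.46 on the *Igf1+/+* arrays. The groups did not overlap, although *Igf1-/-* replicate 2 lay only just under *Igf1+/+* replicate 3. The log2 fold change was −0.63 (SE 0.19, adjusted p = 0.244), or 1.55-fold higher in wild type. Its other probe set was at 5.82, 6.33 and 5.93 against 6.84, 6.46 and 6.46, a difference of −0.56 (SE 0.15, adjusted p = 0.191). *Egln1*, the hydroxylase that sets HIF levels in normal oxygen, was at 9.26, 9.27 and 9.11 in *Igf1-/-* and at 9.50, 9.35 and 9.47 in *Igf1+/+* lungs. The log2 fold change was −0.23 (SE 0.08, adjusted p = 0.312), and −0.41 at its other probe set (SE 0.09, adjusted p = 0.136), both with no overlap.

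*Hif1a*, the oxygen-labile subunit, differed by −0.09 (interval −0.27 to 0.10) at its brightest probe set. Among the 19 genes with several probe sets it was the only one with both signs: its other 3 gave 0.00, −0.35 and 0.30, the last with groups that did not overlap (adjusted p = 0.284) and values between 4.79 and 5.38. *Epas1*, the alpha subunit abundant in lung endothelium, differed by −0.04 (interval −0.37 to 0.29). *Arnt*, the shared partner of both, was at 6.18, 6.18 and 6.14 in *Igf1-/-* and at 6.28, 6.21 and 6.40 in *Igf1+/+* lungs, a small difference of −0.13 (SE 0.08, adjusted p = 0.521) although the groups did not overlap. HIF activity is set mostly by the stability of the alpha protein, which arrays do not measure.

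*Vhl*, which binds hydroxylated HIF and sends it to the proteasome, ran the other way, at 6.49, 6.41 and 6.56 in *Igf1-/-* and at 5.95, 5.91 and 6.53 in *Igf1+/+* lungs. *Igf1+/+* replicate 3 fell among the *Igf1-/-* arrays while the other wild type lungs lay well below. The log2 fold change was 0.35 (SE 0.15, adjusted p = 0.392). Without *Igf1+/+* replicate 3 it was higher with an adjusted p of 0.0351. In that setting 10.8% of all genes were higher at an unadjusted p under 0.05, beside 7.04% with all arrays. With any other array left out the log2 fold change of *Vhl* ran from 0.24 to 0.39 and its adjusted p from 0.518 to 0.748.

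**Figure D3:**
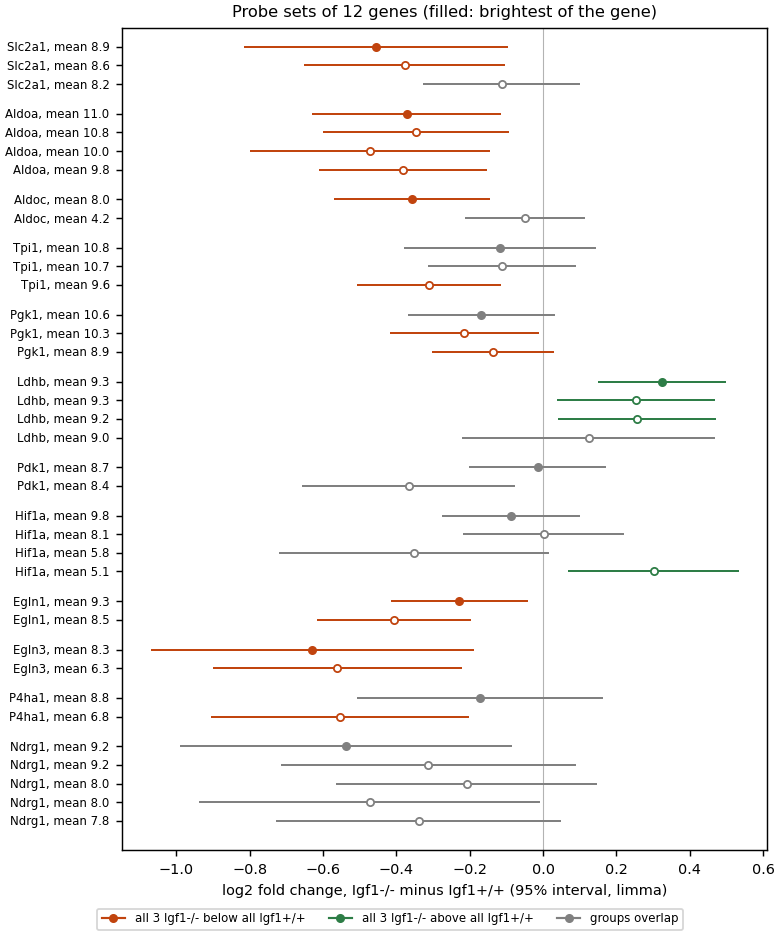
Log2 fold change with its 95% interval for every probe set of 12 genes, ordered within a gene from the brightest (filled) to the dimmest; row labels give the mean log2 value over the 6 arrays. The 4 probe sets of *Aldoa* and both of *Egln3* lie left of 0 with no overlap of the groups, those of *Ldhb* lie right of 0, and those of *Hif1a* lie on both sides.

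Over all probe sets of these genes, 49 of 65 were lower. At an adjusted p under 0.20 there were 4 lower, 1 each of *Aldoa*, *Aldoc*, *Egln1* and *Egln3*, and 1 higher, of *Ldhb*, beside 1.62% and 0.981% of all mouse probe sets, and 0 passed 0.10.

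Of the 5 hypoxia targets in the test, 4 were lower and 1 higher, with a median log2 fold change of −0.20. *P4ha2*, an alpha subunit of the prolyl hydroxylase that matures collagen, was at 7.49, 7.56 and 7.45 in *Igf1-/-* and at 8.13, 7.64 and 7.74 in *Igf1+/+* lungs. The *Igf1-/-* lungs lay close together below a wider wild type group, and the log2 fold change was −0.34 (SE 0.12, adjusted p = 0.32). Without *Igf1+/+* replicate 1 it was −0.19 (adjusted p = 0.638). Its relative *P4ha1* differed by −0.17 (interval −0.51 to 0.16) at its brightest probe set and by −0.55 (SE 0.15, adjusted p = 0.208) at the other, where the values were 6.47, 6.61 and 6.46 against 7.41, 6.72 and 7.07.

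*Ndrg1*, a gene induced by hypoxia and by differentiation, was at 8.69, 9.27 and 8.74 in *Igf1-/-* and at 9.84, 9.19 and 9.28 in *Igf1+/+* lungs. *Igf1-/-* replicate 2 lay inside the wild type range, and the log2 fold change was −0.54 (SE 0.20, adjusted p = 0.325), or −0.33 without *Igf1+/+* replicate 1. All 5 of its probe sets were lower, from −0.54 to −0.21, and each had overlapping groups. *Bnip3*, which promotes the removal of mitochondria, differed by −0.20 (interval −0.60 to 0.19). *Car9*, a membrane carbonic anhydrase that is among the most HIF-dependent genes, was at 6.07, 6.20 and 6.10 in *Igf1-/-* and at 5.94, 6.05 and 5.95 in *Igf1+/+* lungs, higher by 0.14 (SE 0.08, adjusted p = 0.48) with groups that did not overlap.

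Further genes of the same pathways were taken from 3 lists. Of 30 other glycolysis genes 22 were measured, 12 lower and 10 higher, with a median of −0.02 and 0 at an adjusted p under 0.10. At an unadjusted p under 0.05, 1 was lower and 0 higher, beside 5.66% and 7.04% of all genes. The lowest unadjusted p values were those of *Bpgm* and *Slc16a7*. *Bpgm*, which makes the phosphate that loosens oxygen from haemoglobin and is mainly a gene of red cells, was at 8.80, 8.12 and 8.75 in *Igf1-/-* and at 9.14, 9.14 and 8.98 in *Igf1+/+* lungs, a difference of −0.53 (SE 0.16, adjusted p = 0.252). Its dimmer probe sets gave −0.56 (adjusted p = 0.135) and −0.81 (adjusted p = 0.11), both with no overlap. *Slc16a7*, a monocarboxylate carrier, differed by −0.26 (adjusted p = 0.47). Of 12 other genes of the HIF pathway 9 were measured, 6 lower and 3 higher, with a median of −0.01 and 0 called. At an unadjusted p under 0.05, 0 were lower and 1 higher, beside the same shares of all genes. The leading ones were *Arnt2*, a relative of *Arnt*, at 0.22 (adjusted p = 0.381), and *Siah2*, a ubiquitin ligase that acts on the prolyl hydroxylases, at −0.21 (adjusted p = 0.45).

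The list of other HIF target genes held the single call at the brightest probe sets, 1 lower gene, beside 0.452% of all genes. Of 28 genes 25 were measured, 14 lower and 11 higher, with a median log2 fold change of −0.09. *Adm*, which encodes the vasodilator peptide adrenomedullin, fell. It was at 5.14, 5.43 and 5.13 in *Igf1-/-* and at 5.95, 6.18 and 6.40 in *Igf1+/+* lungs. The groups lay clearly apart, and the log2 fold change was −0.94 (SE 0.13, adjusted p = 0.0271), or 1.93-fold higher in wild type. Its adjusted p was 0.123 without *Igf1-/-* replicate 1, 0.135 without *Igf1-/-* replicate 3 and 0.102 without *Igf1+/+* replicate 2, and the probe set is in the dimmer part of the array and drops out when dim probe sets are left out. *Gbe1*, the glycogen branching enzyme, came next at −0.48 (SE 0.10, adjusted p = 0.106), with 6.20, 6.38 and 6.42 against 6.94, 6.84 and 6.68. Its adjusted p was 0.041 with array weights, 0.0721 with sex as a block and 0.0489 without *Igf1+/+* replicate 3. The share of all genes lower at an unadjusted p under 0.05 was 7.53%, 5.58% and 8.47% in these settings. It was 5.66% in the comparison without them. Values of *Gbe1* with other arrays left out are not given here.

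At an adjusted p under 0.20, 4 of the 25 were lower and none higher, beside the 1.57% and 1.15% of all genes given above. The other 2, named here after their values were seen, were *Vegfa*, the growth factor of vessels, and *Plod1*, a lysyl hydroxylase of collagen. *Vegfa* was at 9.69, 9.47 and 9.46 in *Igf1-/-* and at 10.002, 9.86 and 10.09 in *Igf1+/+* lungs, a difference of −0.44 (SE 0.10, adjusted p = 0.122), and its second brightest probe set gave −0.64 (adjusted p = 0.0665). *Plod1* was at 7.96, 7.98 and 7.79 against 8.70, 8.23 and 8.38, a difference of −0.52 (SE 0.12, adjusted p = 0.144). *Ero1a*, also of this list, gave −0.67 at its dimmest probe set (adjusted p = 0.0695). Its brighter probe sets gave −0.18 (adjusted p = 0.483) and −0.13 (adjusted p = 0.709). In 9 of the 25 all *Igf1-/-* values lay below all *Igf1+/+* values and in 1, *Ddit4*, above, beside 6.84% and 11.9% of all genes. *Ddit4*, an inhibitor of growth signalling, differed by 0.25 (SE 0.09, adjusted p = 0.336).

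**Figure D4:**
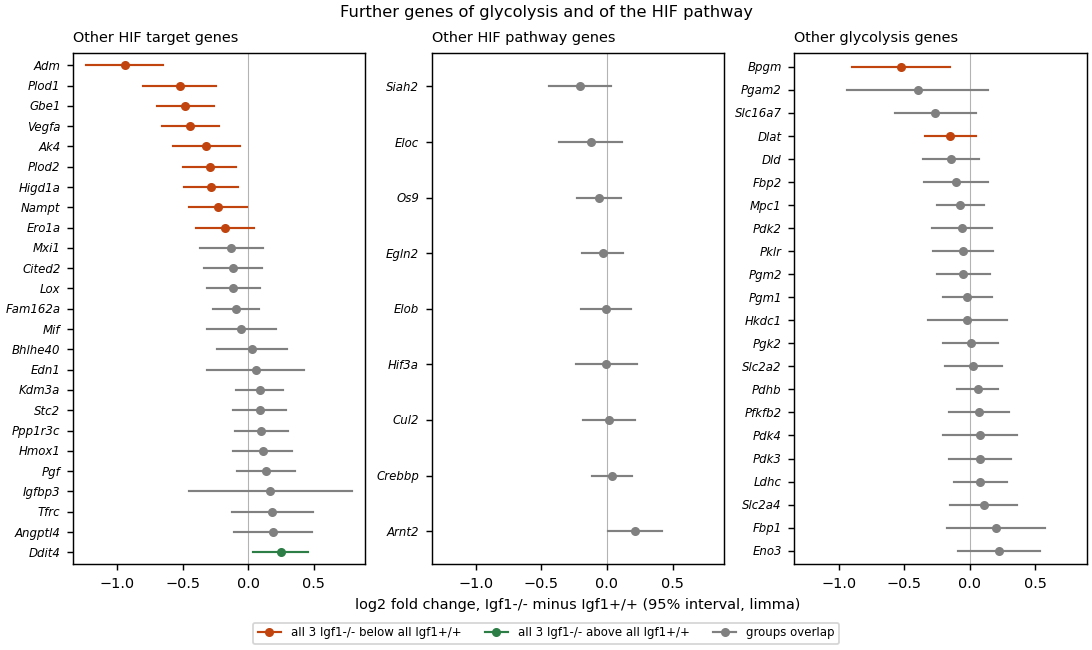
Log2 fold change with its 95% interval for the measured genes of 3 further lists, each sorted by value; colours as in the plot by role. *Adm* stands at −0.94 at the low end of the HIF targets, 9 of whose 25 genes have groups that do not overlap on the low side, while the other HIF pathway genes all lie between −0.21 and 0.22.

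Whole lungs mix cell types, and in such samples fewer cells of a type and less RNA per cell cannot be told apart. The lung label was borne out by *Sftpc*, the surfactant gene of alveolar type II cells, between 14.4 and 14.5 on all arrays. Summed over 4 measured of 6 red cell markers, the *Igf1-/-* arrays ran from 9.62 to 10.1 and the *Igf1+/+* arrays from 10.7 to 11.02 on a log2 scale. *Slc4a1*, the anion exchanger of red cells, fell by 1.64 on the log2 scale (adjusted p = 0.000146) and *Alas2*, which starts their haem synthesis, fell by 0.87 (adjusted p = 0.0754). The other 2, *Hba-a1* and *Rhag*, differed by 0.12 and 0.09 with values between 3.70 and 4.13, near the bottom of the scale. All 6 neutrophil markers were higher in the *Igf1-/-* lungs, with sums of 11.3 to 11.9 against 10.9 on each *Igf1+/+* array, and *Camp*, an antimicrobial peptide, rose by 0.83 (adjusted p = 0.0271). Heart muscle markers stood at 13.3 on *Igf1-/-* replicate 3 and at 11.8 to 12.1 on the other arrays, with *Myh6*, the atrial myosin, at 10.8 there and 9.11 to 9.49 elsewhere. The sum of skeletal muscle markers was also highest on that array (8.92 against 8.31 to 8.38). It is carried by *Ckm*, a muscle creatine kinase, at 8.32 there and 7.45 to 7.56 elsewhere. The other markers of that list were at 5.85 or below on that array. The sums of endothelial, distal epithelial and neuronal markers overlapped between the genotypes. They were 12.4 to 12.8 against 12.7 to 12.8 for endothelial and 15.1 to 15.3 in both for distal epithelial markers. For neuronal markers they were 7.93 to 8.07 against 7.91 to 8.002. Even so, 3 of the 6 endothelial markers were lower on every *Igf1-/-* array, beside 6.84% of all genes. The epithelial sum is carried by *Sftpc*, and *Aqp5*, the water channel of alveolar type I cells in that list, fell by 0.98 (adjusted p = 0.0173), with 9.01, 8.99 and 8.57 in *Igf1-/-* and 9.90, 9.85 and 9.76 in *Igf1+/+* lungs.

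**Figure D5:**
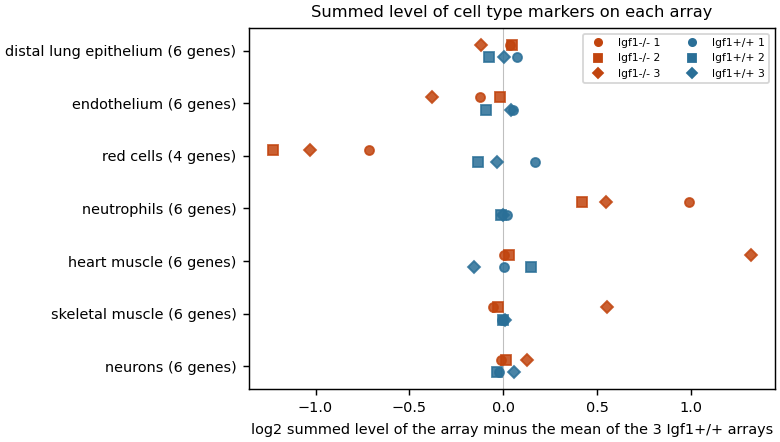
Summed log2 level of 7 cell type marker lists on each array minus the mean of the 3 *Igf1+/+* arrays (x axis); points are arrays, with the number of genes measured in brackets. Red cell markers lie lower and neutrophil markers higher on all *Igf1-/-* arrays, and *Igf1-/-* replicate 3 stands apart in heart and skeletal muscle markers. The skeletal muscle sum is carried by *Ckm*.

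The part of these cell types in the values of the glycolysis and hypoxia genes was not tested. Without *Igf1-/-* replicate 3, the array with the high heart muscle markers, 22 of the 32 genes were lower, with a median of −0.11. At an unadjusted p under 0.05, 3 were lower in that setting, beside 4.57% of all genes. *Ldhb* was at 9.44 and 9.57 on the other *Igf1-/-* arrays, and whether heart muscle bears on its difference was not tested. RNA quality showed no split by genotype: the 3′ value minus the 5′ value ran from −0.01 to 0.13 for *Gapdh* and from 0.23 to 0.43 for *Actb*, the beta-actin gene, with overlapping groups. *Igf1* itself had values of 6.15, 6.33 and 6.46 in *Igf1-/-* and of 6.59, 7.12 and 6.97 in *Igf1+/+* lungs at 1 probe set (log2 fold change −0.58, adjusted p = 0.152), and overlapped at its 2 others. Where these probes lie relative to the disruption is not known here, and they check little about the labels.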

How the data were processed

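RNA from whole lungs at embryonic day 18.5 was hybridised to mouse 3-prime expression arrays, 3 per genotype. The deposited log2 values were made by the authors with RMA over 12 arrays (6 of lung, 6 of cochlea), in a version not given in the sources used here. Of 22690 probe sets, 64 controls were left out. Of the remaining 22626, 20380 had 1 gene symbol, 691 several and 1555 none, and 20351 of the probe sets with 1 symbol were matched to RefSeq (GRCm38.p6). Genotype and replicate came from the labels. With R 4.3.3 and limma 3.58.1 (lmFit, eBayes), genotype was the only term, over 6 arrays, and p-values were adjusted by Benjamini-Hochberg over 22626 probe sets. The fit was tested on simulated data. *Gapdh* came from a fit with controls kept. The number of arrays limits the precision.

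Members and lists were chosen with earlier results of these data known, so no list was given a test. Every measured member is named, with values on each array at an adjusted p under 0.20 or groups without overlap; of further lists, genes with an adjusted p under 0.10, or the 2 with the lowest unadjusted p where fewer than 2 passed. Alternatives were a replicate block, quantile normalization, median centring, dim probe sets left out, variance trend with robust estimates, array weights, controls kept, the second brightest probe set, levels of 0.20 and 0.05, and each array left out; sex as a block, the female arrays alone and the counts at an unadjusted p and of other HIF targets were added after seeing the data. The SAM statistic of the study rests on regrouping samples and was not run.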

Additional observations from a re-analysis of the deposited data

How the results depend on the processing

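The count of 0 genes with an adjusted p under 0.10 held under quantile normalization, median centring, variance trend with robust estimates, dim probe sets left out, controls kept, the second brightest probe set, the level of 0.05 and sex as a block. With dim probe sets left out only 25 of the genes remained, and *Vhl* was not among them. It became 1 with array weights (*Ldhb*, higher), 2 at an adjusted p under 0.20 (1 higher, 1 lower, the lower being 1 glycolytic enzyme), and 1 in the female arrays alone (1 higher, the HIF regulator *Vhl*). With 1 array left out it ran from 0 to 3 (lower 0 to 1, higher 0 to 2, HIF regulators 0 to 1, glycolytic enzymes 0 to 0). The 3 were *Slc2a1*, *Ldhb* and *Vhl*, without *Igf1+/+* replicate 3. There 8.47% of all genes were lower and 10.8% higher at an unadjusted p under 0.05. These shares were 7.53% and 10.4% with array weights, and 5.66% and 7.04% with all arrays at equal weight. The 10 genes lower without overlap became 10 to 16 and the 2 higher became 2 to 5 with 1 array left out; the latter count was 1 with dim probe sets left out, 3 with median centring and 6 in the female arrays, where 34% of all genes were higher without overlap. The median stayed between −0.21 and −0.11. With the replicate block 0 genes were called and the 11 genes lower at an unadjusted p under 0.05 became 10. Arrays of the same number did not deviate together (correlations of −0.04, −0.23 and −0.14), so the numbers were not taken as pairs.

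Differences near 0 changed sign. *Epas1* was 0.091 with array weights, 0.039 in the female arrays and −0.21 to 0.085 with 1 array left out. *Ldha* was 0.0022 with median centring, 0.016 with array weights, 0.076 in the female arrays and −0.063 to 0.056 with 1 array left out. *Pdk1* was 0.011 with quantile normalization, 0.0601 in the female arrays and −0.0703 to 0.034 with 1 array left out. *Pkm* was 0.034 with array weights, 0.11 in the female arrays and −0.10 to 0.11 with 1 array left out. *Hif1a* was 0.0023 at its second brightest probe set, and *Tpi1* 0.069 in the female arrays. With 1 array left out *Slc16a1* ran from −0.17 to 0.0056 and *Slc2a3* from −0.029 to 0.0496. The cause was not tested. The median of all genes moved by less than 0.1 under each scaling.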
